A study of Triticum aestivum with 10 samples.

Results

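A set of 65 probe sets, of 61179 wheat probe sets on the array, declined at every step of grain development and was still expressed at the last stage. They were chosen on measured values: the stage value had to fall by at least 0.5 log2 units at each of the 4 steps between 100, 200, 250, 300 and 500 degree days (DD) after pollination, and both arrays of 500 DD had to read at least 4. Probe sets annotated as histones, rbcL, OEE1, OEE2, Trx-M, FBP, Pgk-1, GAPN, Prx1 or BMY1 were left out, which removed 3 that met the thresholds, Ta.2307.1.S1_at of Pgk-1 and Ta.27708.1.S1_at and Ta.27708.1.S1_x_at of the histone wcH2B-6. Still expressed here means a reading of at least 4 and not a detection call. A fall is the earlier stage value minus the later one, so 1 unit is a 2-fold lower signal. Because the stage values chose the members, the levels, the falls and their order over the stages are described below with no test.

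The grain came from the hexaploid bread wheat Triticum aestivum cv. Récital, vernalized and then grown in a greenhouse, and held endosperm and embryo. The methods name no other treatment of the plants. Each of the 5 stages (labelled B, C, D, E and G) had 2 arrays. Replicate 1 was labelled 130, 185, 230, 290 and 490 DD and replicate 2 was labelled 100, 200, 250, 300 and 500 DD. The study sampled in a pair of harvest years, and by these degree days replicate 1 was taken to be the later and replicate 2 the earlier harvest. All groups share the cultivar and the greenhouse, so nothing here compares genotypes, and a replicate differs from the other in year and in labelled degree days at once.

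A young wheat grain is first built by cell division, while the green maternal pericarp around the endosperm is still active. The methods name endosperm and embryo as the sampled tissue, and whether pericarp was part of it is not stated. Later the endosperm stores starch and protein, the pericarp thins out and the embryo matures. Transcripts of dividing or maternal cells can make up less of the RNA of an older grain even where each cell keeps its level. In bulk grain RNA, fewer cells of a type and less RNA per cell cannot be told apart. Array probe sets are named after a sequence cluster (Ta.28361, for example), and a name ending in _a_at, _s_at or _x_at marks probes that may also match related transcripts, which in a hexaploid include copies of a gene on the other subgenomes.

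The array labelled 100 DD replicate 2 stood apart and entered no stage value. Over the 24727 probe sets that read at least 4 on at least 2 of the other 9 arrays, it correlated at r = 0.987 with 500 DD replicate 2, at 0.972 with 500 DD replicate 1 and at 0.628 with 100 DD replicate 1. The first stage therefore rests on 1 array, 100 DD replicate 1. Markers of the tissue behaved as follows over the 9 arrays: the median of 13 endosperm probe sets, of gliadins, thionins and starch enzymes among others, was 2.98, 14.11, 14.32, 14.37 and 13.92 over the 5 stages, with 8 of the 13 under 4 at 100 DD and 0 from 200 DD on. All 9 embryo probe sets were under 4 through 250 DD, 5 were under 4 at 300 DD and 0 at 500 DD, where their median was 13.39.

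On the array of 100 DD the members ranged between 7.59 and 14.71 with a median of 10.88. Their median was 9.67 and 9.59 on replicates 1 and 2 at 200 DD, 9.02 and 8.69 at 250 DD, 8.14 and 7.61 at 300 DD, and 5.71 and 5.64 at 500 DD. The members thus passed from well above the median of all tested probe sets, which lay between 6.33 and 6.49 on the 9 arrays, to slightly below it. The total fall had a median of 4.46 units and ranged between 2.18 and 9.39, or between 4.52-fold and 673-fold with a median of 22-fold. The medians of a pair of marker lists declined over the same stages, though not every probe set of them did. The median of 16 histone probe sets, which mark dividing cells, was 10.30, 9.48, 8.73, 8.53 and 5.49 from 100 to 500 DD, single probe sets lay between 5.40 and 13.17 at 100 DD and between 3.83 and 7.78 at 500 DD, and 2 of the 16 were under 4 at 500 DD. All 16 were lower on both 500 DD arrays than on the array of 100 DD, some by a small margin, and 14 fell at each of the 4 steps. The median of the 10 photosynthetic probe sets that passed the filter, of 34 on the array, was 9.05, 8.93, 8.43, 7.88 and 5.73, and 0 of the 10 had a stage mean under 4. Of these 10, 7 were lower on both 500 DD arrays than on the array of 100 DD, 6 fell at each step and 4 were higher at 200 DD than at 100 DD. The probe sets of these lists carry names that the choice of members left out. The part of dividing or green cells in the decline of the members was not tested.

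**Figure D1:**
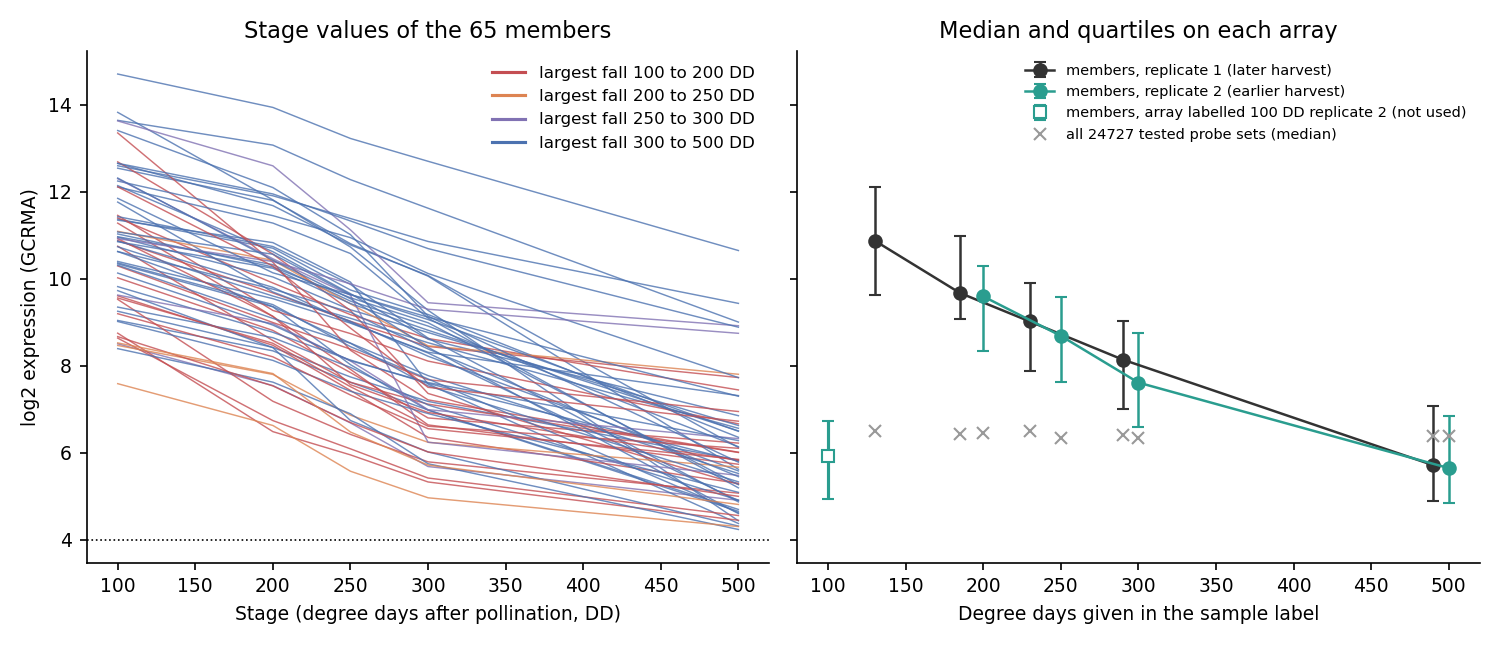
Left, the log2 stage value of each of the 65 members against the stage in DD, coloured by the step with the largest fall, with a dotted line at 4. Right, the median of the members on each array with bars from the lower to the upper quartile, against the labelled degree days; the replicates end at 5.71 and 5.64 at 500 DD, and the open square, the array labelled 100 DD replicate 2, lies at 5.93, beside the 500 DD arrays.

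The step to 500 DD held the largest share of the fall. The median fall was 0.99 units between 100 and 200 DD, 0.84 between 200 and 250 DD, 0.70 between 250 and 300 DD and 1.76 between 300 and 500 DD, and these steps made up a median of 24.2%, 17.5%, 16.5% and 39.4% of a member's total fall. It was the largest step in 38 of 65 members (58.5%), while the step to 200 DD was the largest in 18, the step to 300 DD in 5 and the step to 250 DD in 4. At least 50% of the total fall came after 300 DD in 16 members and before 200 DD in 2. Among the 11394 tested probe sets that were lower on both 500 DD arrays than on the array of 100 DD, 49.8% had their largest fall between 100 and 200 DD, 10.2% between 200 and 250 DD, 9.0% between 250 and 300 DD and 31.0% between 300 and 500 DD. Of the same 11394, 3404 had at least 50% of their total fall after 300 DD and 5539 before 200 DD. The rule required a fall of 0.5 at each step of the members alone, which limits the share that 1 step can hold. The difference between these shares and counts therefore has no test.

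The steps differ in length, and the order turned round per degree day. By the labels, the steps spanned 62.5, 47.5, 55 and 200 DD, the first counted from the 130 DD of the only array used there. The median fall per 100 DD was 1.59, 1.77, 1.28 and 0.88 units. The step after 300 DD was the slowest of the 4 in 44 members and the fastest in 3. The rule set the same minimum fall for every step, which allows a lower rate over the long last step than over the others. The lowest rate of any member was 0.82, 1.06, 0.91 and 0.25 units per 100 DD over the 4 steps. The minimum fall thus in part set which step was slowest. The fastest was the step to 200 DD in 23 members (35.4%), the step to 250 DD in 27 (41.5%) and the step to 300 DD in 12 (18.5%). The 11394 tested probe sets lower on both 500 DD arrays than on the array of 100 DD were counted alike. Of these, 53.1% were fastest at the step to 200 DD, 21.4% to 250 DD, 15.3% to 300 DD and 10.2% to 500 DD. The last step was the slowest in 4111 of them. The members alone had to meet the minimum fall, so these differences were not tested. With the stages between 300 and 500 DD unsampled, the time of the late fall within that interval is unknown.

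**Figure D2:**
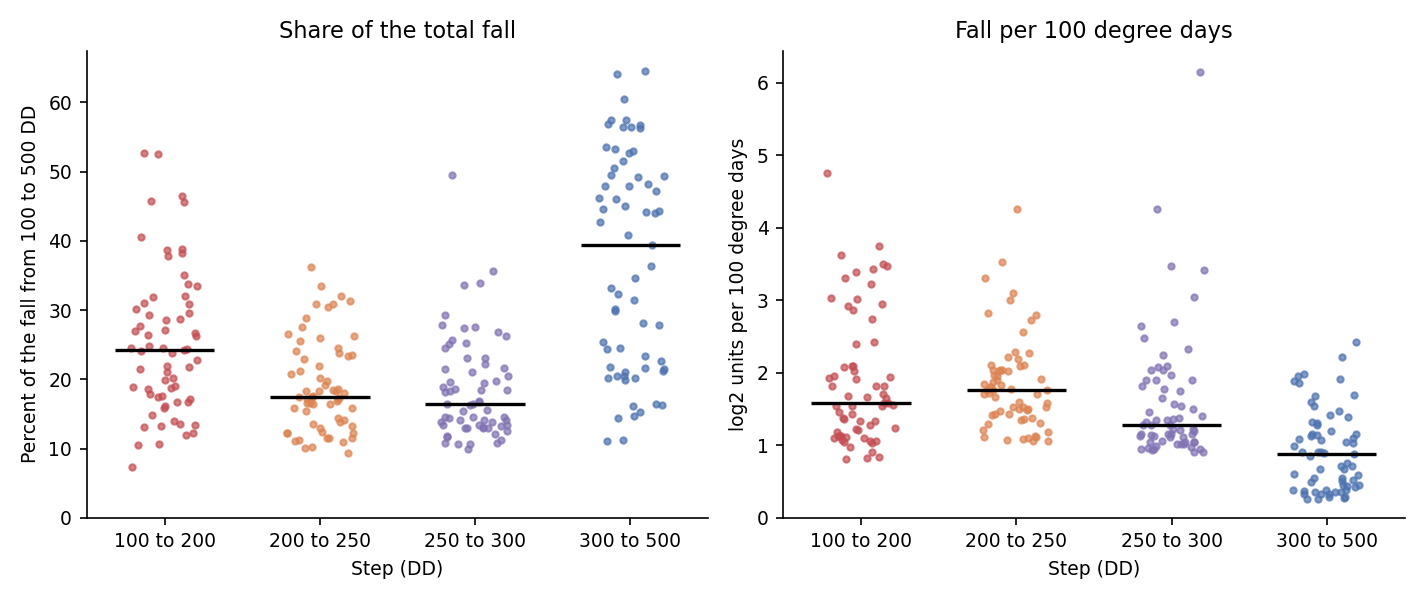
Each point is 1 of the 65 members and each black line a median, by step in DD. Left, the percent of the member's total fall held by each step, highest for the step to 500 DD with a median of 39.4%; right, the fall in log2 units per 100 labelled degree days, lowest for that step with a median of 0.88.

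The 38 members with their largest step after 300 DD had a median total fall of 5.0 units, between 3.09 and 9.39. Ta.10348.1.S1_a_at had both the largest total fall of all members, 9.39 units, and the largest fall after 300 DD, 4.84 units. It read 13.83 at 100 DD, 12.27 and 11.35 at 200 DD (replicates 1 and 2), 10.93 and 10.53 at 250 DD, 9.53 and 9.02 at 300 DD, and 4.18 and 4.69 at 500 DD. Its replicates kept together within 1 unit at each stage from 200 DD on, and it ended just above the minimum of 4. The next largest late fall, 4.44 units, was that of Ta.1130.2.S1_x_at, with 12.54 at 100 DD, 11.78 and 11.82 at 200 DD, 10.50 and 11.11 at 250 DD, 9.99 and 10.13 at 300 DD, and 4.3 and 6.93 at 500 DD. Its 500 DD arrays lay further apart than those of any earlier stage, although both were below the 300 DD arrays. A second member of the same cluster, Ta.1130.1.S1_a_at, ran alongside it, at 5.62 and 6.62 at 500 DD after 9.93 and 10.22 at 300 DD.

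The 18 members with their largest step before 200 DD had a median total fall of 4.31 units, between 3.15 and 7.41. Ta.20930.1.S1_at led both early steps, with falls of 2.97 to 200 DD and 2.02 to 250 DD. Its values were 13.35 at 100 DD, 11.16 and 9.60 at 200 DD, 8.38 and 8.33 at 250 DD, 7.05 and 7.37 at 300 DD, and 6.86 and 5.16 at 500 DD. The early falls set it apart from Ta.10348.1.S1_a_at, since 40.5% of its decline came before 200 DD and 16.4% after 300 DD. Ta.14225.1.S1_x_at had the next largest first step, 2.34 units, at 9.52 on the array of 100 DD and at 7.46 and 6.90 at 200 DD. The first step held 52.6% of the decline of this probe set and also of Ta.14225.3.S1_a_at, from the same cluster, and in no other member did it hold as much. The size of the first step rests on 1 array at 100 DD for each of these.

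The step to 250 DD was the largest in Ta.2340.1.S1_at, Ta.25584.1.S1_at, TaAffx.10325.2.S1_at and TaAffx.26385.1.S1_at, with falls of 0.94 to 1.34 units there. Behind Ta.20930.1.S1_at, the largest fall at this step was that of Ta.3281.1.A1_at, 1.68 units, with 9.28 and 7.55 at 200 DD ahead of 7.0 and 6.48 at 250 DD. The step to 300 DD was the largest in Ta.28320.1.S1_s_at, Ta.2809.1.S1_s_at, Ta.10964.1.A1_at, Ta.2860.1.S1_at and Ta.29403.1.A1_at. Ta.28320.1.S1_s_at stood out among them with a fall of 3.38 units, 49.5% of its decline. It read 12.30 at 100 DD, 10.91 and 10.01 at 200 DD, 10.28 and 8.95 at 250 DD, 7.42 and 5.06 at 300 DD, and 5.59 and 5.37 at 500 DD. Replicate 2 was near its final level by 300 DD and replicate 1 was not. Ta.1227.1.A1_at had the next largest fall at that step, 2.35 units, followed by a larger one of 3.21 after 300 DD, and ended at 4.29 and 4.45.

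In 13 of the 65 members the decline was even, in that the 4 falls lay within a factor of 2 of each other. Ta.29403.1.A1_at was the flattest member, with falls of 0.53, 0.51, 0.58 and 0.55 and the smallest total, 2.18 units. It read 10.92 at 100 DD, 10.69 and 10.10 at 200 DD, 10.17 and 9.59 at 250 DD, 9.21 and 9.38 at 300 DD, and 8.59 and 8.90 at 500 DD. It and Ta.25584.1.S1_at, at 2.80 units, were the 2 members with a total fall under 3, while 12 members fell by over 6 in all.

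Still expressed at 500 DD covered a wide range of levels. The lower of both 500 DD arrays was under 5 in 27 members and at least 8 in 6. The highest mean at 500 DD was 10.65, in Ta.2752.3.S1_x_at, which read 14.71 at 100 DD, 14.03 and 13.85 at 200 DD, 13.05 and 13.41 at 250 DD, 12.70 and 12.70 at 300 DD, and 10.55 and 10.74 at 500 DD. This probe set was the brightest member on the array of 100 DD as well. Ta.28361.2.S1_at followed with a mean of 9.43 at 500 DD (8.66 and 10.21) and Ta.2752.2.S1_x_at with 9.0 (8.88 and 9.13). Levels of different probe sets depend on their probes, so this order is one of array signal.

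Members and other probe sets lay close to both thresholds. Just inside the minimum fall were Ta.4814.1.A1_a_at, with a fall of 0.501 to 250 DD, and Ta.4432.1.S1_s_at, with 0.503 to 300 DD. Just outside were Ta.10329.9.S1_a_at and Ta.28055.2.S1_a_at, each with a smallest fall of 0.499. On the lower 500 DD array, Ta.14537.3.S1_a_at at 4.06 and Ta.14225.3.S1_a_at at 4.10 were inside, and TaAffx.37775.1.A1_s_at at 3.97 and Ta.20443.1.A1_at at 3.93 were outside. The smallest fall was under 0.6 in 29 members. Without a minimum at 500 DD, 183 probe sets met the 4 falls, and 115 of them were under 4 on at least 1 of the 500 DD arrays.

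Gene names were available for 3 of the 65 members, all as locus numbers of protein-coding genes, and no function could be given for any of them. The other 62 had no gene in the array annotation, which pairs 1273 of the 61179 probe sets with a gene, 893 of them among those tested. LOC100037649 (Ta.1395.1.S1_at) read 10.97 at 100 DD, 10.36 and 10.28 at 200 DD, 9.38 and 9.58 at 250 DD, 9.07 and 8.76 at 300 DD, and 5.68 and 6.59 at 500 DD. Its total fall was 4.83 units, of which 57.4% came after 300 DD. LOC100049048 (Ta.28265.1.S1_at) had a similar course from a higher start, with 12.25 at 100 DD, 11.23 and 11.67 at 200 DD, 10.95 and 10.94 at 250 DD, 10.36 and 9.88 at 300 DD, and 7.11 and 8.34 at 500 DD. Its total fall was 4.52 units, with 53.0% after 300 DD. In both genes the late step was the largest and replicate 2 was the higher array at 500 DD.

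LOC543455 (Ta.2860.1.S1_at) differed from these in that its replicates parted at the end. It read 9.62 at 100 DD, 9.39 and 8.54 at 200 DD, 8.42 and 7.80 at 250 DD, 7.43 and 6.55 at 300 DD, and 7.80 and 4.85 at 500 DD. On replicate 1 the 500 DD array was above the 300 DD array, and on replicate 2 it was below it by 1.70 units. Its place among the members therefore rests on replicate 2 at the last step. Its stage means gave a total fall of 3.30 units, with the largest step, 1.12, between 250 and 300 DD.

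**Figure D3:**
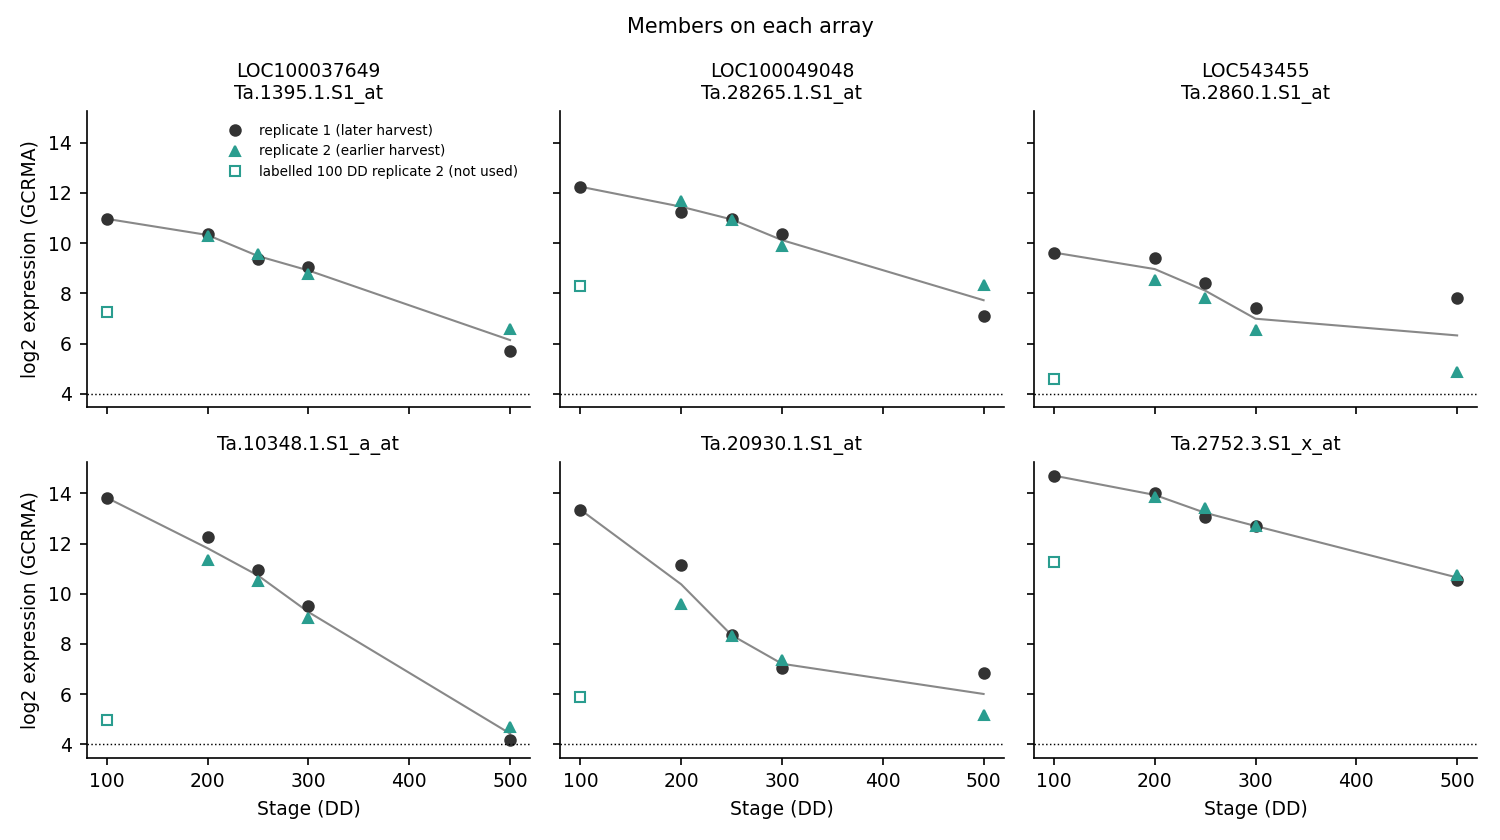
Log2 expression on each array against the stage in DD for the 3 members with a gene name (upper row) and for 3 unnamed members (lower row: the largest total fall, the largest early fall and the highest level at 500 DD). Circles are replicate 1, triangles replicate 2, the line joins the stage values, the dotted line marks 4, and the open square is the array labelled 100 DD replicate 2, which lies nearer to the 500 DD mean than to the array of 100 DD in all 6; for LOC543455 it reads 4.59, near replicate 2 at 4.85 and far from replicate 1 at 7.80.

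The first question on the harvests was whether neighbouring stages overlapped array by array. The later stage lay wholly below the earlier one in 63 of 65 members between 200 and 100 DD, against 43.1% of all tested probe sets. The exceptions were Ta.10329.11.A1_at and Ta.2340.1.S1_at, whose replicate 1 array at 200 DD read 9.09 and 11.12, just above the 9.04 and 11.09 of the array of 100 DD. The same held in 55 members between 250 and 200 DD (17.8% of all tested), in 57 between 300 and 250 DD (18% of all tested) and in 53 between 500 and 300 DD (27.6% of all tested). At all 4 steps at once it held in 45 members, against 1.68% of all tested. The stage means that chose the members also fix most of these counts, and nothing further is read from them.

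The falls within each replicate come from the same arrays whose means chose the members, so the counts that follow are largely set by the rule and are given as a description. Both replicates were lower at 250 DD than at 200 DD in 65 of 65 members (34.6% of all tested), lower at 300 DD than at 250 DD in 64 (31.9% of all tested) and lower at 500 DD than at 300 DD in 57 (37.4% of all tested). All 3 steps held on both replicates in 56 members, against 6.15% of all tested. The exception at 300 DD was Ta.23439.1.S1_at, and the 8 at 500 DD included LOC543455. A fall of 0.5 on both replicates was met by fewer members, 47 at the step to 250 DD (4.45% of all tested), 41 at the step to 300 DD (3.98% of all tested) and 47 at the step to 500 DD (14.8% of all tested). It was met at all 3 of these steps by 20 members, against 0.57% of all tested, so in the other 45 members a replicate fell by under 0.5 at 1 or more of these steps.

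The size of the fall between 200 and 500 DD was larger on replicate 1 in 46 of 65 members (50.8% of all tested). Its median was 3.64 units on replicate 1 and 3.11 on replicate 2, and the median difference was 0.63. Across the 65 members, which share their arrays and are no independent replicates, the falls of both replicates correlated at Pearson's r = 0.776 and Spearman's rho = 0.716. The same arrays chose the members, and no correlation over other probe sets is set beside it, so it is a description only. Per 100 labelled degree days, the medians on replicate 1 were 2.07 to 250 DD, 1.32 to 300 DD and 1.02 to 500 DD. On replicate 2 they were 1.41, 1.63 and 0.773. The slowest step was the last on both replicates, while the fastest step differed between them. As above, the minimum fall of the rule in part set which step was slowest.

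**Figure D4:**
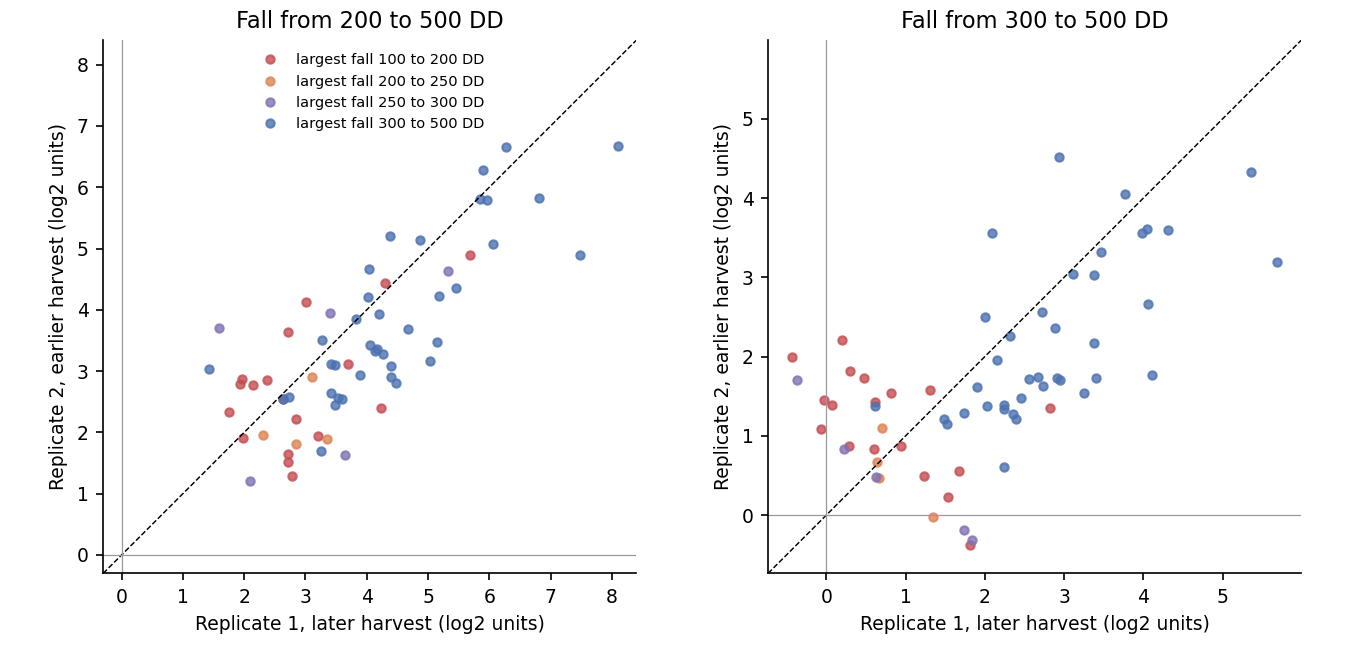
The fall in log2 units on replicate 1 (horizontal axis, later harvest) against that on replicate 2 (vertical axis, earlier harvest) for each of the 65 members, between 200 and 500 DD (left) and between 300 and 500 DD (right); the dashed line marks equal falls and colours give the step of the largest fall. On the right, 4 members lie left of 0 and 4 lie below 0, so 57 fell on both replicates.

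A choice made on 1 replicate could be followed on the other, whose later arrays had no part in it. With replicate 1 alone, 63 probe sets met the thresholds, 26 of them members. On replicate 2, 20 of these 63 (31.7%) fell by at least 0.5 at each of the 3 steps after 200 DD, against 1.5% of all tested, and 46 fell by any amount at each step, against 16.8% of all tested. The level at 500 DD was at least 4 on replicate 2 in 53 of the 63, a share near that of all tested (87.6%). The median fall between 200 and 500 DD was 2.65 units on replicate 2, where they were followed, against 3.52 on replicate 1, where they were chosen. In the other direction 70 probe sets were chosen on replicate 2 with the same array of 100 DD, 38 of them members, and 30 (42.9%) met the 3 falls on replicate 1, against 1.49% of all tested. Any fall at each step was found on replicate 1 in 58 of the 70, against 12.8% of all tested, and a level of at least 4 at 500 DD in 61, again near the share of all tested (86.4%). Their median fall was 3.76 units on replicate 1, where they were followed, and 3.35 on replicate 2, where they were chosen.

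Between the replicates of a stage, the share of members higher on replicate 1 was above that of all tested probe sets at 200 and 300 DD, close to it at 250 DD and below it at 500 DD, and these differences in share were not tested. Members were higher on replicate 1 in 49 of 65 at 200 DD (53.7% of all tested), in 44 at 250 DD (65.1% of all tested), in 47 at 300 DD (61.4% of all tested) and in 31 at 500 DD (52.9% of all tested). The shares of the members were 75.4%, 67.7%, 72.3% and 47.7%. Of the 11394 tested probe sets lower at 500 DD than at 100 DD, 64.6%, 67.6%, 65.8% and 53.6% were higher on replicate 1. The median difference of the members, replicate 1 minus replicate 2, was 0.47, 0.17, 0.28 and -0.07 over these stages. Replicate 2 was labelled 15, 20, 10 and 10 DD later than replicate 1 at the same stages, so harvest year and a slightly later sampling cannot be told apart. The replicates differed by over 1 unit in 14 members at 200 DD (11.3% of all tested), in 6 at 250 DD (10.9% of all tested), in 6 at 300 DD (9.27% of all tested) and in 21 at 500 DD (9.85% of all tested). By this count of single members the last stage had the most wide gaps, in both directions, although its median difference was the one nearest to 0.

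The 18 members with their largest fall before 200 DD were all higher on replicate 1 at 200 DD (53.7% of all tested). Their median difference there was 0.84, and 13 of them were higher at 500 DD (52.9% of all tested). The 4 members with their largest fall at the step to 250 DD were also all higher on replicate 1 at 200 DD, as were the 5 at the step to 300 DD. Their median differences there were 0.67 and 0.68, and 2 and 3 of them were higher at 500 DD. Of the 38 with their largest fall after 300 DD, 22 were higher on replicate 1 at 200 DD, with a median difference of 0.06, and 13 at 500 DD. These groups were formed on stage means that include the same arrays.

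No member passed a test between the replicates. With limma, the stage as a factor and Benjamini-Hochberg adjustment over all 24727 probe sets, 0 of 65 members had an adjusted p under 0.05, and 0 of all tested did (0% called). At an unadjusted p under 0.05 there were 16 members, 15 of them higher on replicate 1, where 11.7% of all tested were, and 1 lower, where 6.6% of all tested were. In both directions together these were 24.6% of members and 18.3% of all tested. With 1 array per replicate and stage, the lack of calls does not show that the replicates agreed. The median difference was 0.30 units over the members and 0.08 over all tested. The lowest adjusted p of a member was 0.0699, for TaAffx.102873.1.S1_at, which was higher on replicate 1 by 0.95 units (SE 0.153). It read 10.82 on replicate 1 and 10.03 on replicate 2 at 200 DD, 10.07 and 9.01 at 250 DD, 9.02 and 7.83 at 300 DD, and 4.97 and 4.22 at 500 DD. Replicate 1 was thus the higher in all 4 stages, but the difference did not pass.

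**Figure D5:**
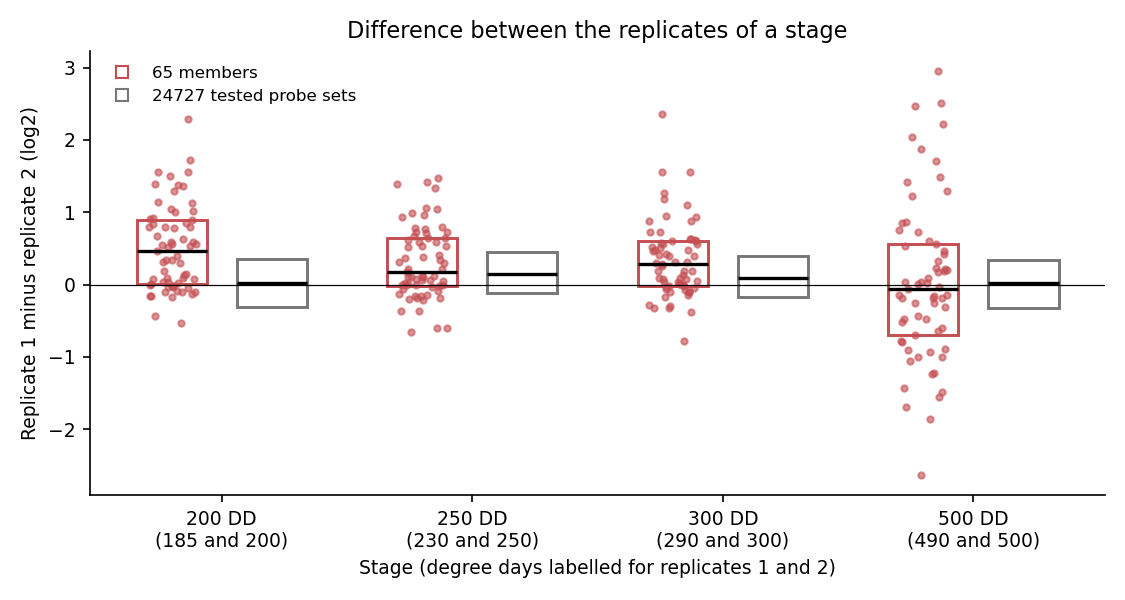
Replicate 1 minus replicate 2 in log2 units at each stage with both arrays, for the 65 members (points, red box from quartile to quartile, black median) and for the 24727 tested probe sets (grey box and median). The medians of the members are 0.47, 0.17, 0.28 and -0.07 from 200 to 500 DD, and their spread is widest at 500 DD.

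The array labelled 100 DD replicate 2, which the rule did not use, read the members at their late level. Their median there was 5.93, against 10.88 on the other array of that label, and the median difference between these arrays was -4.55. It was nearer to the 500 DD mean than to 100 DD replicate 1 in 65 of 65 members (82.1% of all tested) and below both 300 DD arrays in 62 (38.1% of all tested). The 3 exceptions were Ta.14225.1.S1_x_at, Ta.10964.1.A1_at and TaAffx.10325.2.S1_at. This array resembled the 500 DD arrays over all tested probe sets, and the rule put each member's 500 DD mean below its earlier ones. Both counts thus largely follow from the choice of members. That array was also nearer to 500 DD replicate 2 than 500 DD replicate 1 was in 50 members (68.1% of all tested). Its median distance was 0.28 units to 500 DD replicate 2 and 0.73 to 500 DD replicate 1, while both 500 DD arrays were 0.63 apart. LOC100037649, LOC100049048 and LOC543455 read 7.26, 8.29 and 4.59 on it. With this array averaged into the first stage, 1 probe set in place of 65 met the rule.

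The members fell into 52 sequence clusters by name, and 9 clusters held over 1 member, 22 members in all. Members of a cluster share transcripts and are not separate observations. All 4 probe sets of Ta.28361 on the array were members, as were 3 of 5 of Ta.13256 and 3 of 4 of Ta.20658, and Ta.1130, Ta.1988, Ta.2752, Ta.7561, Ta.10329 and Ta.14225 held 2 each. Within each of these 9 clusters the members had the same largest step. The members of Ta.28361, Ta.20658, Ta.1130, Ta.1988, Ta.2752 and Ta.10329 all had their largest fall after 300 DD, and those of Ta.13256, Ta.14225 and Ta.7561 before 200 DD. Of 123 other probe sets of the members' clusters, 100 passed the filter, and 98 of them were lower on both 500 DD arrays than on the array of 100 DD (98%, against 46.1% of all tested). The exceptions were Ta.2752.1.S1_x_at and Ta.7378.32.S1_x_at. A fall of any size at each step was found in 70 of the 100, against 10.4% of all tested, and these probe sets may read the members' own transcripts. Most of the 100 came from a pair of clusters, 35 from Ta.10329 and 34 from Ta.7378, the cluster that holds named histone probe sets. Among the 31 of the other 23 clusters, 30 were lower on both 500 DD arrays and 24 fell at each step (77.4%).

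Ta.7378.7.S1_at had no gene name but shares its cluster with 7 probe sets annotated as the histone wcH2B-8 (LOC543184), a class that was left out by name. It read 11.03 at 100 DD, 10.78 and 9.76 at 200 DD, 9.75 and 9.37 at 250 DD, 8.84 and 9.13 at 300 DD, and 5.91 and 4.62 at 500 DD. At 64.6% it had the highest share of its decline after 300 DD of all members. Without it, 57.8% of 64 members had their largest fall after 300 DD.

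By probe design, 34 of the 65 members had names ending in plain _at, 7 in _a_at, 5 in _s_at and 19 in _x_at. The _x_at share was 29.2%, against 16.6% of all tested, and 6 members (9.23%) came from TaAffx sequences, against 26.5% of all tested. Among the 34 with plain names the largest step was to 500 DD in 18 (52.9%), to 200 DD in 9, to 250 DD in 4 and to 300 DD in 3.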

How the data were processed

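Total RNA of wheat grain was hybridized to 10 Affymetrix wheat arrays, 2 at each of 5 stages. The authors corrected and summarized the probe signals with GCRMA (its version: not given in the sources used here). The deposited file holds the resulting log2 expression of each probe set on each array. Its 10 columns were all mapped to arrays, with 0 unused, but the array labelled 100 DD replicate 2 entered no stage value. Members were found by the stated rule among 61179 probe sets, without 111 Affymetrix controls, and a filter of at least 4 on at least 2 of 9 arrays left 24727 tested probe sets. All 65 members pass it by the rule itself. Array number limits the precision, and nothing in the sources states how many plants were pooled per array.

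The replicates were compared with limma 3.58.1 in R 4.3.3, with the stage as a factor, 1 shared spread, and Benjamini-Hochberg adjustment over all tested probe sets. The methods' 2-group test with Bonferroni adjustment was not used, and Bonferroni was an alternative. The fit was tested on simulated data. Other values were computed in Python 3.11.15. Replicate 1 was taken as the later harvest because its labelled degree days lie nearest to the sampling times of that year in the study's methods. The labels give no year.

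Members and lists were chosen with earlier results of these data known. By the naming rule, members with a gene name, the 2 with the largest fall at each step, the 3 highest at 500 DD and those nearest the thresholds were named, and further probe sets were named after their values were seen. Gene names come from an old array annotation, and 1272 of its 1273 entries were found in RefSeq by gene number. That table held no descriptions, so planned gene groups could be matched only to symbols, and 0 members matched. No genome, promoter or protein sequence was used here, and no motif was searched. Alternatives changed the thresholds, the normalization, the arrays, the filter, the variance prior and the adjustment.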

Additional observations from a re-analysis of the deposited data

Results flagged for a closer look

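In 9 members the replicates moved in opposite directions at 1 step although the stage mean fell. Each such contrast rests on 1 array per replicate and stage, and the difference was not tested. At the step from 300 to 500 DD, the fall was 1.74 on replicate 1 and -0.19 on replicate 2 in Ta.10964.1.A1_at, a difference of 1.94 log2 units, where a negative fall is a higher value at the later stage. Likewise it was 1.81 and -0.37 in Ta.14225.1.S1_x_at, a difference of 2.19. Ta.28320.1.S1_s_at had 1.83 on replicate 1 and -0.31 on replicate 2, a difference of 2.14, and TaAffx.10325.2.S1_at had 1.34 and -0.02, a difference of 1.36. In these 4 replicate 2 was at its late level by 300 DD.

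In 4 other members replicate 1 was the one that did not fall after 300 DD. LOC543455 (Ta.2860.1.S1_at) had a fall of -0.37 on replicate 1 and 1.70 on replicate 2, a difference of -2.07. TaAffx.32695.1.S1_s_at had -0.43 and 1.99, a difference of -2.43. Both probe sets of cluster Ta.7561 behaved alike, with -0.07 on replicate 1 and 1.09 on replicate 2 in Ta.7561.1.S1_at (difference -1.16) and -0.03 and 1.45 in Ta.7561.1.S1_x_at (difference -1.48). At the step from 250 to 300 DD, Ta.23439.1.S1_at had a fall of 1.5 on replicate 1 and -0.22 on replicate 2, a difference of 1.71.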

How the results depend on the processing

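The number of members followed the thresholds. It was 113 with a 500 DD minimum of 3 and 38 with 5, 125 with falls of at least 0.4, 36 with 0.6 and 1807 with any fall at each step, 34 with plain _at names only, 117 with 3 steps from 200 DD, and 1 with 100 DD as the mean of both arrays. It was 58 after quantile normalization (54 of the 65 among them) and 53 with arrays centred on the median (52 among them), which shifted arrays by at most 0.08. Leaving out 1 array gave 50 to 83 members, of which 40 to 62 were among the 65. The share with the largest fall after 300 DD, 58.5%, was 36.7% with any fall and 0% of the 1 member with 100 DD as the mean of both arrays, 55.6% to 70% without 1 array, and 55.8% with 1 probe set per cluster, an alternative chosen after seeing the data. The share of probe sets chosen on replicate 1 that fell on replicate 2, 31.7%, was 32.4% to 47.3% under the 6 alternatives. Between replicates 0 members passed, also without any 1 array (0 to 0), and 1 passed with a trend in the variance prior (207 of all tested), where the lowest adjusted p of a member from limma was 0.0484. Over the other settings that p was 0.0583 to 1. Over all tested, 48 passed after quantile normalization, 111 with a filter at 5, 189 without the stage in the fit, and 156 without either 200 DD array. No paired analysis was possible because, with the replicate number as a block, the only test has no groups left: it compares the replicates themselves. This holds for the replicate number as the block and not for the stage. The limma test had the stage as a factor, so it compared the replicates within stages, with their arrays paired by stage. Contrasts between stages chose the members, so they were not tested, with or without the replicate number as a block. With 1 usable array at 100 DD and 2 at each other stage, a first step has no replicate and a difference between stages rests on 1 array per harvest. Signals near 4 are close to the level at which falls can no longer be read.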
